A study of Mus musculus with 24 samples.

Results

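The 9 genes described here are the 5 mouse receptors for sphingosine 1-phosphate (S1pr1, S1pr2, S1pr3, S1pr4 and S1pr5) and 4 genes that act with them in lymph node homing (Klf2, Cd69, Ccr7 and Foxo1). They were chosen by name, and all 9 were found among the 35817 gene symbols to which the deposited transcript counts were summed. Levels are given as TMM CPM, which are CPM (counts scaled to library size) with libraries put on a common scale by the trimmed mean of M values, in each of 24 libraries.

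The study asked how T cells that overexpress β-catenin behave as donor cells in allogeneic transplantation. Cat-Tg mice carry, as heterozygotes, a human β-catenin transgene that lacks its N-terminal part and was placed in a vector with the proximal promoter of Lck, which is active in T cells from the thymus on. The founders were made in FVB mice and bred to C57BL/6, and which of the founder lines was sequenced is not given in the sources used here. WT donors were C57BL/6 mice without the transgene, and mice were 8 to 12 weeks old. Pre-tx cells were CD4+ or CD8+ T cells sorted from fresh spleens of donor mice. Post-tx cells were sorted on day 7 from spleens of lethally irradiated BALB/c recipients, which had received donor CD4+ and CD8+ T cells with WT bone marrow depleted of T cells. CD4+ and CD8+ cells were sorted from each of 3 mice per genotype and time. All cells were sorted from spleen, so no value below is from a lymph node or a target organ. With 2 genotypes, 2 cell types and 2 times there were 8 groups of 3 libraries.

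Total estimated counts ranged from 11135713 to 50519825 per library, and 3 counts corresponded to between 0.0596 and 0.27 CPM. This floor covers counting error only, since reads were counted without molecular identifiers, whereas the SE and interval of a fold change also hold the spread between the libraries of a group. Which CD4+ and CD8+ libraries came from the same mouse is not given in the labels, and CD8+ against CD4+ was fitted as if all libraries were independent. The 6 libraries labelled WT pre-tx went against their labels. Of the summed CPM of Cd4 and Cd8a, Cd8a held 50% to 63.9% in those labelled CD8 and 52.4% to 65.4% in those labelled CD4. In the 9 other libraries labelled CD8 it held 99.0% to 99.9%, and in the 9 other libraries labelled CD4 0.0895% to 3.39%. The summed level of 16 B cell marker genes was 5660 to 9590 CPM in the WT pre-tx libraries and 60.4 to 771 CPM in the 18 others. The 13 T cell markers summed to 1930 to 3390 CPM in the WT pre-tx libraries, against 5280 to 18700 CPM elsewhere. Every comparison with these libraries is therefore a comparison with the libraries labelled WT pre-tx, and in bulk RNA fewer cells of a type and less RNA per cell cannot be told apart.

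Sphingosine 1-phosphate (S1P) is a lipid that is abundant in blood and lymph and scarce inside lymphoid tissue. T cells that carry S1PR1 follow this gradient out of lymph nodes, spleen and thymus. KLF2 is a transcription factor that activates S1pr1, and FOXO1 acts upstream of it and maintains Ccr7 in naive T cells. CD69 binds S1PR1 and removes it from the surface, so activated cells stay in the tissue. CCR7 is the chemokine receptor that brings T cells from blood into lymph nodes. S1PR5 serves egress and circulation of NK cells and effector lymphocytes, S1PR2 opposes migration towards S1P, and S1PR4 is largely restricted to blood and lymphoid cells. S1PR3 is best known from endothelial and stromal cells and from marginal zone B cells.

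On GRCm38, in the GENCODE M21 annotation, S1pr1 is at chr3:115710433-115715072 (minus strand), and Foxo1 is on the same chromosome at chr3:52268336-52353221 (plus strand). S1pr2 at chr9:20962361-20976781 and S1pr5 at chr9:21242912-21248443 are on the minus strand of chromosome 9. S1pr3 is at chr13:51408639-51422797 (plus strand), and S1pr4 at chr10:81497747-81500132 (minus strand). Klf2 is at chr8:72319033-72321656 (plus strand), Cd69 at chr6:129267325-129275436 (minus strand) and Ccr7 at chr11:99144196-99155077 (minus strand). S1pr3 overlaps the lincRNA Gm32834 on the opposite strand, S1pr5 overlaps Gm48303 on the opposite strand, and Foxo1 overlaps Gm20402 on the opposite strand and Gm38034 on its own. The library kit does not mark strand, so reads from the overlapping stretches cannot be told apart, and the counts of these 3 genes are uncertain by that amount.

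β-catenin acts on transcription through TCF and LEF factors, so the promoter windows were searched for a TCF and LEF motif (CTTTGAT or CTTTGAA), a forkhead motif (GTAAACA) and a KLF motif (CACCC), on both strands. RefSeq promoter windows on GRCm38.p6, each 250 bases before to 50 bases after the start, matched 6 of the 9 genes: S1pr2, S1pr3, S1pr4, S1pr5, Klf2 and Foxo1. The TCF and LEF motif was in none of the 6 windows and is in 8.65% of all 32851 windows of this length. The forkhead motif was also in none and is in 3.65% of all windows. The KLF motif was in 5 of the 6 and is in 57.5% of all. A match or its absence describes only these letters in this window. The windows of the 3 S1P receptor genes whose mean CPM spanned the widest fold range over the groups are shown, 5′ to 3′ on the gene's strand, with matches to CACCC or its reverse complement GGGTG in capitals. They are chr13:51408368-51408667 (plus), chr9:21248394-21248693 (minus) and chr10:81500088-81500387 (minus).
S1pr3: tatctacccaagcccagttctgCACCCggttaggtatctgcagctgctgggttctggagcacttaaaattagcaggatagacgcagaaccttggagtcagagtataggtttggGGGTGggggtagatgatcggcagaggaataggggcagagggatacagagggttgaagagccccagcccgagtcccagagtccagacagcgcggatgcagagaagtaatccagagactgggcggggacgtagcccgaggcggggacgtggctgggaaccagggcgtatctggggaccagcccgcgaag
S1pr5: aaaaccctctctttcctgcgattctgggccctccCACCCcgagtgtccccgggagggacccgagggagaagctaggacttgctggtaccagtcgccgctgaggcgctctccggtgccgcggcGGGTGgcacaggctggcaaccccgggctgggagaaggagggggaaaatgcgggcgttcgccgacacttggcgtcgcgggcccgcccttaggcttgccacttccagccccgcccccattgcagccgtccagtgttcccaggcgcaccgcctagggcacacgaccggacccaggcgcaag
S1pr4: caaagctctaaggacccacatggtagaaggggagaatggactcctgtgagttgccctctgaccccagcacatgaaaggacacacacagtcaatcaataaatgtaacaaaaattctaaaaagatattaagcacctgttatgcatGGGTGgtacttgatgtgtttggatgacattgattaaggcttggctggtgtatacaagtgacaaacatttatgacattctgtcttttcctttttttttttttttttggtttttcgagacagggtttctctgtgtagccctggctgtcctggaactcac
In S1pr3 the matches begin 228 and 137 bases before the start, in S1pr5 216 and 128 bases before it, and in S1pr4 107 bases before it. The GC content was 59.0% for S1pr3, 69.3% for S1pr5 and 41.0% for S1pr4, against a median of 52.7% over all windows.

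To compare the genes with each other, levels per length (TPM) were used. Ccr7 had the highest mean TPM of the 9 genes in all 4 pre-tx groups (320 to 572 TPM), and S1pr4 in all 4 post-tx groups (172 to 262 TPM). S1pr1 was among the 3 highest genes in every group, from 33.1 TPM in WT CD8+ post-tx to 182 TPM in WT CD8+ pre-tx. The TPM ranges of S1pr4 and S1pr1 overlapped in all 4 CD4+ groups and in Cat-Tg CD8+ pre-tx. In 4 of the 6 groups other than WT pre-tx, S1pr3 and S1pr5 were the lowest of the 9 genes in TPM, while S1pr5 reached 5.45 TPM in Cat-Tg CD8+ post-tx cells. There its range overlapped those of S1pr2 (5.97 TPM) and Ccr7 (3.88 TPM).

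**Figure D1:**
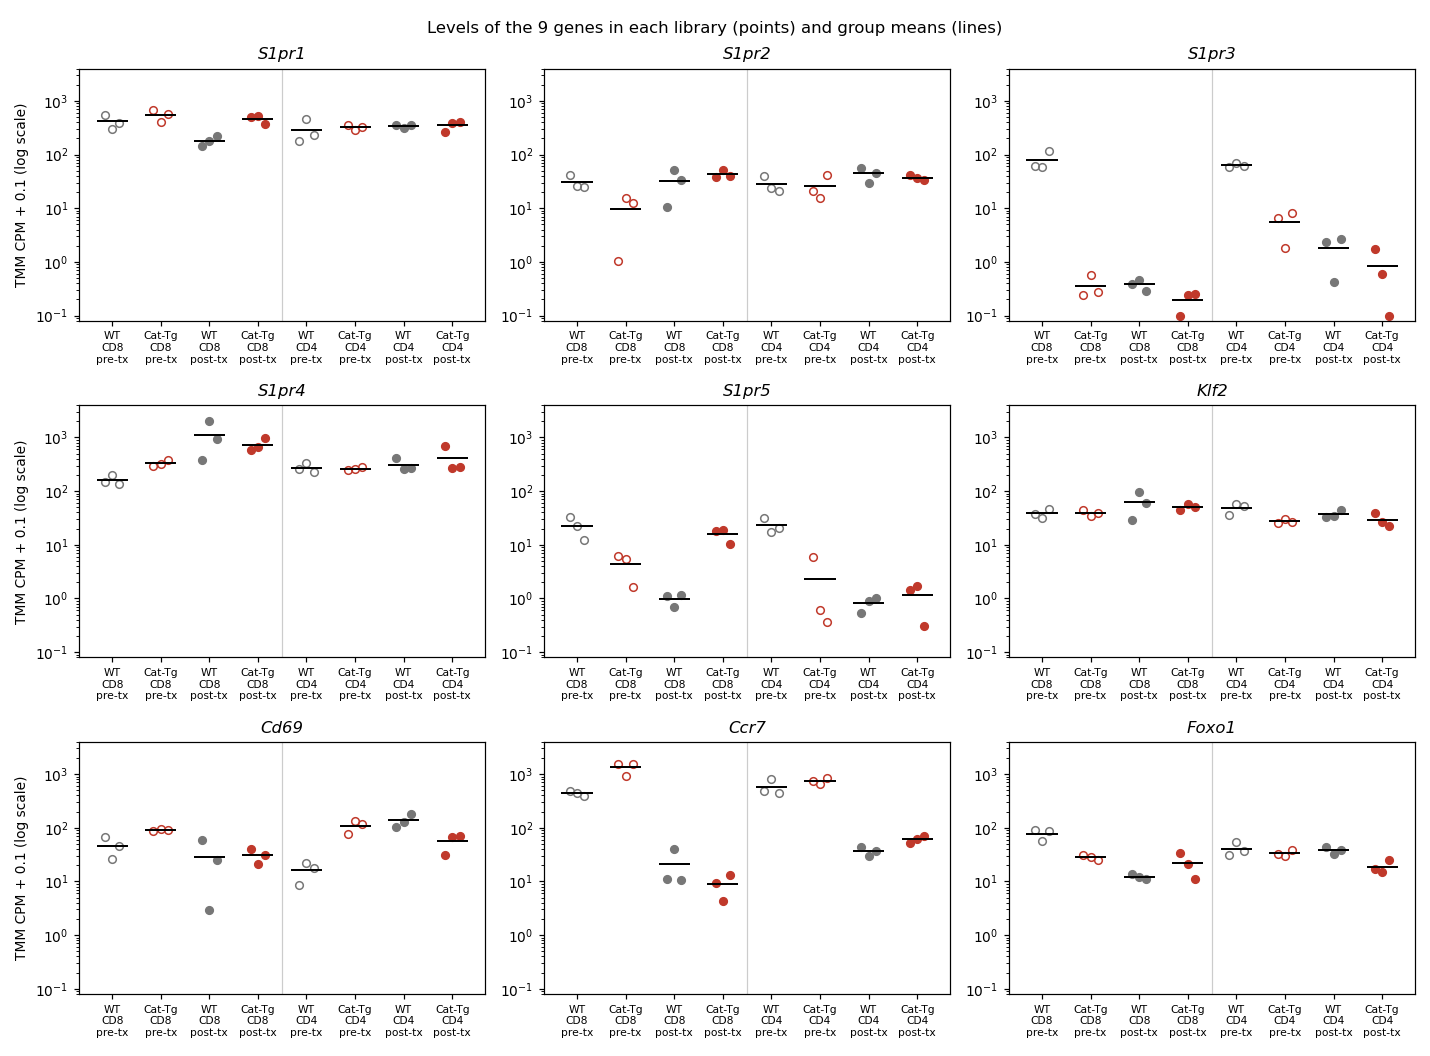
TMM CPM plus 0.1, on a log axis, of the 9 genes in each of the 24 libraries (points; WT grey, Cat-Tg red, pre-tx open, post-tx filled), with the group mean as a line and 3 libraries in each group. Ccr7 is lower post-tx in all 4 pairs of groups, S1pr3 is above 50 CPM only in the WT pre-tx libraries, and S1pr5 in CD8+ post-tx cells is at 10.1 to 18.7 CPM in Cat-Tg cells and 0.59 to 1.05 CPM in WT.

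S1pr5 was higher in Cat-Tg than in WT CD8+ T cells after transplantation. It was at 17.7, 18.7 and 10.1 CPM in the 3 Cat-Tg libraries and at 1.02, 0.59 and 1.05 CPM in the 3 WT libraries. All Cat-Tg libraries lay above all WT libraries, and the counts behind them were 266 to 544 in Cat-Tg and 8 to 23 in WT. The log2 fold change was 4.17 (SE 0.743, adjusted p = 0.0167 by edgeR's quasi-likelihood test). S1pr5 was the only one of the 9 genes to pass both thresholds, an adjusted p no higher than 0.05 with a log2 fold change of 1 or more in size, where 1.67% of all 15960 genes tested did. Without Cat-Tg replicate 1 the log2 fold change was 4.07 with an adjusted p of 0.0836, and without Cat-Tg replicate 2 it was 3.96 with an adjusted p of 0.0889. The 7 NK cell markers, a cell type in which S1pr5 is used, summed to 32.9 to 48 CPM in the Cat-Tg and 14.4 to 39.2 CPM in the WT libraries of this comparison, with 3 of the 7 at a mean of 1 CPM or more in each group. The defining NK cell marker Ncr1 was at 4.95 to 17.1 CPM in Cat-Tg cells and 1.87 to 5.17 CPM in WT, which overlapped. Myeloid and red cell markers did not overlap in the same libraries. The B cell list (80.5 to 103 CPM in Cat-Tg, 60.6 to 146 CPM in WT) and the endothelial list (53.4 to 79.2 and 50.9 to 70.2 CPM) did. The 10 myeloid markers summed to 235 to 417 CPM in Cat-Tg against 113 to 225 CPM in WT, and Csf1r was at 23.7 to 63.5 against 3.64 to 21.3 CPM. The 5 red cell markers summed to 1310 to 2150 against 149 to 901 CPM, and Alas2 was at 40 to 97.1 against 5.51 to 6.93 CPM. The part of NK, myeloid or red cell RNA in the CD8+ post-tx differences between genotypes was not tested.

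S1pr1, the main egress receptor, pointed the same way in these cells and just missed the threshold. It was at 509, 518 and 368 CPM in Cat-Tg CD8+ post-tx and at 146, 176 and 218 CPM in WT CD8+ post-tx. The groups did not overlap, and the log2 fold change was 1.43 (SE 0.352, adjusted p = 0.0539). DESeq2 gave an adjusted p of 0.0114, and limma-voom 0.0555. With each library compared left out in turn, the log2 fold change was 1.29 to 1.75 and the adjusted p 0.0278 to 0.243 in edgeR. Across the 8 groups the mean of S1pr1 ranged from 180 ± 36.1 CPM (SD, n = 3) in WT CD8+ post-tx to 555 ± 141 CPM in Cat-Tg CD8+ pre-tx, and every group overlapped its neighbour in that order. S1pr1 was at 180 ± 36.1 CPM in WT CD8+ post-tx, below the 413 ± 127 CPM of the pre-tx libraries labelled WT CD8+. The log2 fold change was -1.21 (SE 0.35, adjusted p = 0.0197). Without WT CD8+ pre-tx replicate 1 this call was lost (log2 fold change -1, adjusted p = 0.0889). In Cat-Tg CD8+ cells it was at 555 ± 141 CPM pre-tx and 465 ± 84.2 CPM post-tx, and the change did not pass (adjusted p = 0.441). The difference between these time effects was not shown (adjusted p = 0.306). In the WT CD8+ time comparison the T cell markers summed to 1930 to 2300 CPM pre-tx and to 8130 to 18700 CPM post-tx. The B cell list there was at 5660 to 8190 CPM pre-tx and at 60.6 to 146 CPM post-tx. The part of these in the S1pr1 change was not tested. In CD4+ cells S1pr1 was between 287 and 348 CPM in all 4 groups, and neither genotype nor time passed the test.

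The other S1pr5 values were lower or rested on the WT pre-tx libraries. Cat-Tg CD8+ pre-tx cells had 6.1, 5.23 and 1.54 CPM, below every Cat-Tg post-tx library, but the time difference in Cat-Tg did not pass (log2 fold change 1.72, SE 0.662, adjusted p = 0.0864). Against CD4+ cells of the same genotype and time, S1pr5 was higher in Cat-Tg CD8+ post-tx cells (15.5 against 1.04 CPM, log2 fold change 3.82, SE 0.921, adjusted p = 0.0112). Without Cat-Tg CD4+ post-tx replicate 3 the adjusted p was 0.0649. Among WT post-tx cells the level was 0.886 CPM in CD8+ and 0.712 CPM in CD4+, and the groups overlapped. The WT pre-tx libraries held 12.3 to 32.6 CPM of S1pr5 in both labelled cell types. From there it fell to post-tx, with log2 fold changes of -4.67 in CD8+ and -5.24 in CD4+ (SE 0.759 and 1.04, adjusted p = 0.000422 and 0.00194). The interaction, which tests whether the genotype effect differs between post-tx and pre-tx, was 6.39 in CD8+ and 3.83 in CD4+ for S1pr5 (SE 0.999 and 1.31, adjusted p = 0.00109 and 0.0471). In CD4+ pre-tx S1pr5 was lower in Cat-Tg (5.87, 0.505 and 0.268 CPM) than in the libraries labelled WT (31.6, 16.9 and 20.9 CPM), with a fold change of -3.32 in log2 (SE 0.95, adjusted p = 0.0207). That call was lost without Cat-Tg replicate 2 or 3 or WT replicate 1 (adjusted p 0.0537 to 0.0831).

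S1pr3 separated the WT pre-tx libraries from all others. It was at 60.9, 57.6 and 118 CPM in WT CD8+ pre-tx and at 59.4, 69.3 and 61.6 CPM in WT CD4+ pre-tx. In the 9 other CD8+ libraries S1pr3 had 0 to 12 counts, or 0 to 0.465 CPM. It passed the filter on low counts only through the WT pre-tx libraries. It therefore had to differ there, and no p is given for CD8+ comparisons with them. The other CD4+ groups were at 1.68 to 7.91 CPM in Cat-Tg pre-tx, 0 to 1.67 CPM in Cat-Tg post-tx and 0.323 to 2.59 CPM in WT post-tx. In CD4+ pre-tx S1pr3 was lower in Cat-Tg than in the libraries labelled WT (log2 fold change -3.47, SE 0.94, adjusted p = 0.0163). That call was lost without Cat-Tg replicate 1 or 2 (adjusted p = 0.0511 and 0.0739) and with no filter on low counts (adjusted p = 0.115). S1pr3 fell between WT CD4+ pre-tx and post-tx (log2 fold change -5.44, adjusted p = 0.00157). In Cat-Tg CD4+ cells it also fell (log2 fold change -3.45, SE 1.02, adjusted p = 0.0138), a call lost without Cat-Tg CD4+ post-tx replicate 2 (adjusted p = 0.0632) and in the fit without the WT pre-tx libraries (adjusted p = 0.0678).

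The 16 B cell markers moved with these values. Per 1000 CPM of the B cell list there were 7.23 to 14.6 CPM of S1pr3 in the 6 WT pre-tx libraries and 3.2 to 10.3 in Cat-Tg CD4+ pre-tx, but 0.267 to 1.92 in Cat-Tg CD8+ pre-tx. The 5 marginal zone B cell markers summed to 602 to 1320 CPM in the WT pre-tx libraries to 165 to 229 CPM in the Cat-Tg pre-tx libraries and to 103 to 506 CPM in the post-tx libraries, where S1pr3 was at most at 2.59 CPM. The endothelial markers Cdh5 and Tek were at most at 3.24 and 2.83 CPM in any of the 24 libraries. The part of B cell RNA in the S1pr3 and S1pr5 results was not tested. In Cat-Tg pre-tx cells alone S1pr3 was lower in CD8+ (0.259 CPM) than in CD4+ (5.38 CPM), with a fold change of -4.29 in log2 (SE 0.998, adjusted p = 0.0217) and groups that did not overlap. That call was lost when the WT pre-tx libraries were left out of the fit, with limma-voom, with CD4+ and CD8+ libraries of the same number as a replicate block, and without replicate 1 or 3 of either group (adjusted p 0.0715 to 0.158 over these). The B cell list was at 242 to 527 CPM in these CD8+ and at 526 to 771 CPM in these CD4+ libraries.

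**Figure D2:**
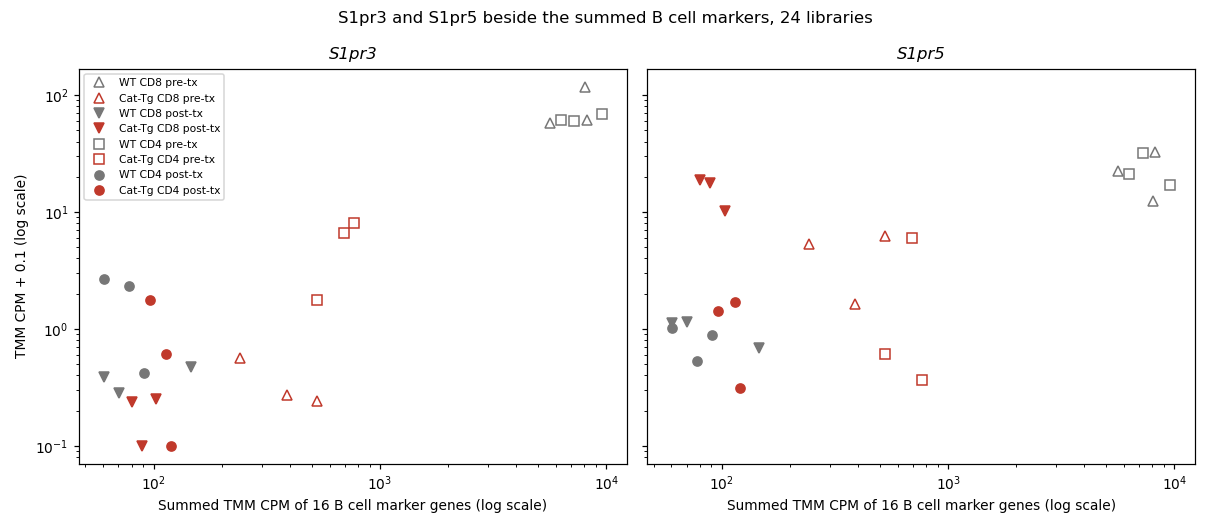
TMM CPM plus 0.1 of S1pr3 (left) and S1pr5 (right) against the summed TMM CPM of 16 B cell marker genes, both on log axes, for the 24 libraries (WT grey, Cat-Tg red, pre-tx open, post-tx filled, shapes for cell type and time). The 6 WT pre-tx libraries lie apart at 5660 to 9590 CPM of the list, and in S1pr5 the 3 Cat-Tg CD8+ post-tx libraries lie high at 80.5 to 103 CPM of the list.

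S1pr4 was the most variable receptor in WT CD8+ post-tx cells. It was at 384, 2000 and 950 CPM in the 3 libraries, against 146, 201 and 137 CPM in those labelled WT CD8+ pre-tx. The log2 fold change was 2.7 (SE 0.476, adjusted p = 0.000804). The rise was smaller per length, with a mean of 97.6 TPM pre-tx and 248 TPM post-tx. On that scale the groups overlapped, since the lowest post-tx library was at 97.5 TPM and the highest pre-tx library at 140 TPM. The T cell markers summed to 1930 to 2300 CPM in those pre-tx libraries and to 8130 to 18700 CPM in WT CD8+ post-tx. Their part in the S1pr4 rise was not tested. In Cat-Tg CD8+ cells S1pr4 was at 295, 315 and 384 CPM pre-tx and at 588, 651 and 977 CPM post-tx. Those groups did not overlap, but the difference did not pass (log2 fold change 1, SE 0.451, adjusted p = 0.132). A difference between the time effects of the genotypes was not shown (adjusted p = 0.1). The genotypes overlapped post-tx (738 ± 209 CPM in Cat-Tg cells and 1110 ± 822 CPM in WT). In WT post-tx cells S1pr4 was higher in CD8+ than in CD4+ (1110 against 312 CPM, log2 fold change 1.77, SE 0.417, adjusted p = 0.0055), although the ranges overlapped and the call was lost when only those 6 libraries were fitted (adjusted p = 0.0958) and with the replicate block (adjusted p = 0.0589). CD4+ cells held 260 to 411 CPM on average in all 4 groups, with no call for genotype or time.

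S1pr2 had lower levels and no call in any of the 16 comparisons. Group means were 25.8 to 44.3 CPM in 7 groups and 9.66 ± 7.74 CPM (SD, n = 3) in Cat-Tg CD8+ pre-tx. In that group the libraries were at 0.938, 15.7 and 12.3 CPM, all below the 3 Cat-Tg CD8+ post-tx libraries at 37.3, 52.2 and 40.3 CPM. The log2 fold change of 2.02 (SE 0.766) had an adjusted p of 0.0828 in edgeR, and DESeq2 and limma-voom called it.

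Ccr7, the lymph node entry receptor, was much lower after transplantation in every pair of groups. In Cat-Tg CD8+ cells it went from 1540, 908 and 1550 CPM to 9.25, 4.22 and 13.2 CPM (log2 fold change -7.4, SE 0.64, adjusted p = 7.75e-06). From the libraries labelled WT CD8+ pre-tx to WT CD8+ post-tx it went from 484, 441 and 387 CPM to 10.8, 40.9 and 10.5 CPM. The log2 fold change was -4.47 (SE 0.559, adjusted p = 5.32e-05). In Cat-Tg CD4+ cells Ccr7 fell from 749 ± 106 to 60.8 ± 9.87 CPM (log2 fold change -3.94, adjusted p = 1.08e-07). From the libraries labelled WT CD4+ pre-tx to WT CD4+ post-tx it fell from 584 ± 196 to 36.4 ± 6.68 CPM. The log2 fold change was -4.19 (adjusted p = 1.96e-08). No pre-tx library overlapped a post-tx library. The T cell markers summed to 1930 to 3390 CPM in the libraries labelled WT pre-tx and to 5900 to 18700 CPM in WT post-tx. The B cell list was at 5660 to 9590 and 60.4 to 146 CPM there. Their part in the WT changes of Ccr7 was not tested.

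Between genotypes Ccr7 passed both thresholds in CD8+ pre-tx only. Before transplantation it was higher in Cat-Tg than in the libraries labelled WT CD8+ (1330 ± 367 against 437 ± 48.8 CPM, log2 fold change 1.75, SE 0.497, adjusted p = 0.0377). Leaving out any 1 of these 6 libraries ended that call (adjusted p 0.0578 to 0.127), and the T cell markers summed to 7230 to 9330 CPM in Cat-Tg cells and to 1930 to 2300 CPM in WT. Their part in the difference was not tested. In CD4+ pre-tx the Ccr7 groups overlapped (749 ± 106 CPM in Cat-Tg, 584 ± 196 CPM in those labelled WT). The log2 fold change there was 0.49 (SE 0.216, adjusted p = 0.128). After transplantation Ccr7 in CD8+ cells was 8.9 ± 4.51 CPM in Cat-Tg cells and 20.8 ± 17.5 CPM in WT, with overlapping groups (adjusted p = 0.216). In CD4+ post-tx cells it was at 50.8, 61.2 and 70.6 CPM in Cat-Tg cells and 42.8, 29.5 and 36.9 CPM in WT. These did not overlap, and the adjusted p of 0.0413 passed but the log2 fold change of 0.74 (SE 0.217) was under the fold threshold. With each library compared left out in turn, the adjusted p was 0.0273 to 0.169. Among Cat-Tg post-tx cells Ccr7 was lower in CD8+ than in CD4+ (log2 fold change -2.96, SE 0.416, adjusted p = 4.42e-05).

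Cd69, the brake on S1PR1, differed between the libraries labelled Cat-Tg CD4+ and WT CD4+ in opposite directions before and after transplantation. Pre-tx it was at 76.9, 133 and 115 CPM in Cat-Tg and at 8.52, 22.1 and 17.6 CPM in the libraries labelled WT, with a fold change of 2.9 in log2 (SE 0.387, adjusted p = 0.000131). Post-tx it was at 30.8, 68.4 and 68.7 CPM in Cat-Tg cells and at 101, 129 and 182 CPM in WT, with a fold change of -1.33 in log2 (SE 0.365, adjusted p = 0.0307). The groups did not overlap at either time, and the interaction was -4.22 (SE 0.53, adjusted p = 0.000104). Pre-tx, the T cell markers summed to 6590 to 7410 CPM in Cat-Tg CD4+ and to 2160 to 3390 CPM in the libraries labelled WT CD4+. The B cell list was at 526 to 771 and 6330 to 9590 CPM there. Their part in the Cd69 results that use these WT libraries was not tested. The post-tx call was lost without WT CD4+ replicate 2 or 3, and without any 1 of the Cat-Tg CD4+ replicates (adjusted p 0.0575 to 0.0951 over these). From the libraries labelled WT CD4+ pre-tx to WT CD4+ post-tx Cd69 rose (log2 fold change 2.92, adjusted p = 6.5e-05). Over time it fell in Cat-Tg CD4+ (log2 fold change -1.3, SE 0.365, adjusted p = 0.00986). In the fit without the WT pre-tx libraries the log2 fold change in Cat-Tg CD4+ was -0.96 (adjusted p = 0.0287), just under the fold threshold.

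In CD8+ cells Cd69 was at 86.4, 94.1 and 90.7 CPM in Cat-Tg pre-tx and at 65.7, 26.4 and 45.3 CPM in WT pre-tx, which did not overlap but did not pass (adjusted p = 0.354). Post-tx it was 30.7 ± 9.82 CPM in Cat-Tg cells and 28.8 ± 27.8 CPM in WT, where the 3 libraries were at 58.2, 2.88 and 25.4 CPM. WT post-tx CD8+ cells had less Cd69 than WT post-tx CD4+ cells (28.8 against 137 CPM, log2 fold change -2.26, SE 0.615, adjusted p = 0.0152), a call lost without WT CD8+ replicate 3 or WT CD4+ replicate 3 and when only those 6 libraries were fitted (adjusted p 0.0662 to 0.142 over these).

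Part of the Cd69 counts lay on a transcript annotated as a retained intron. Its share of Cd69 counts was 28.1% to 40.3% in WT CD4+ pre-tx and 20.1% to 51.4% in WT CD8+ pre-tx, against 0.196% to 6.79% in the 6 Cat-Tg pre-tx libraries and 5.31% to 16.3% in the 12 post-tx libraries. The WT pre-tx libraries all lay above the 18 others. Without this transcript Cd69 was at 72.3 to 127 CPM in Cat-Tg CD4+ pre-tx and at 5.71 to 15.9 CPM in WT CD4+ pre-tx, which still did not overlap. Over all genes, retained-intron transcripts held 6.17% to 8.38% of counts in WT CD8+ pre-tx and 2.29% to 4.98% in the 21 other libraries.

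**Figure D3:**
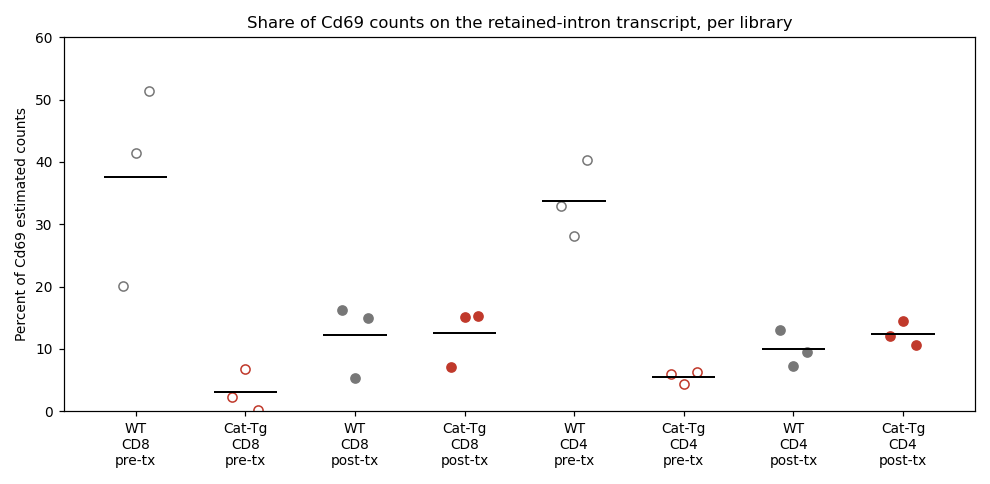
Percent of the Cd69 estimated counts assigned to its retained-intron transcript in each of the 24 libraries (points), with the mean of the 3 libraries of a group as a line; WT grey, Cat-Tg red, pre-tx open, post-tx filled. The 6 WT pre-tx libraries lie between 20.1% and 51.4%, above all others.

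Foxo1 and Klf2 are the transcription factors of the set. Foxo1 was lower in Cat-Tg than in WT CD4+ post-tx cells, at 17, 14.9 and 24.6 CPM against 43.2, 31.7 and 38.5 CPM. The groups did not overlap, and the log2 fold change of -1.01 (SE 0.283, adjusted p = 0.0337) passed by little. DESeq2 gave -0.87 (adjusted p = 0.0305) and the fit without the WT pre-tx libraries -0.84 (adjusted p = 0.1), both short of a call. The call was also lost without Cat-Tg replicate 1 or 2 or any 1 WT replicate (adjusted p 0.0516 to 0.14). The 10 myeloid markers summed to 2260 to 3970 CPM in these Cat-Tg and 583 to 797 CPM in these WT libraries, and the defining markers Csf1r (1200 to 1730 against 141 to 236 CPM) and Adgre1 (63.5 to 248 against 33.7 to 44 CPM) also did not overlap. The part of myeloid RNA in the CD4+ post-tx results for Foxo1, Cd69 and Ccr7 was not tested.

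In CD8+ cells Foxo1 was highest in the libraries labelled WT pre-tx (89.9, 56.7 and 85.8 CPM), above every other group, and fell to 13.5, 11.9 and 10.8 CPM in WT post-tx (log2 fold change -2.7, SE 0.49, adjusted p = 0.000982). The B cell list was at 5660 to 8190 CPM in those pre-tx libraries and 60.6 to 146 CPM in WT CD8+ post-tx, and its part in the fall was not tested. In Cat-Tg CD8+ Foxo1 was at 27.9 ± 2.95 CPM pre-tx and 21.7 ± 11.3 CPM post-tx, with overlap. In Cat-Tg CD4+ it fell from 33.3 ± 4.74 to 18.9 ± 5.1 CPM (log2 fold change -1.14, SE 0.284, adjusted p = 0.0051), which was -0.98 without Cat-Tg CD4+ post-tx replicate 2 and -0.81 in the fit without the WT pre-tx libraries, under the fold threshold. WT post-tx CD8+ cells had less Foxo1 than WT post-tx CD4+ cells (log2 fold change -1.68, SE 0.372, adjusted p = 0.00333), a call lost when only those 6 libraries were fitted (adjusted p = 0.0544). Klf2 was not called in any of the 16 comparisons. Its group means were 27.5 to 62 CPM and each group overlapped its neighbour in order. In CD4+ pre-tx it averaged 27.5 CPM in Cat-Tg against 48.5 CPM in the libraries labelled WT, without overlap (log2 fold change -0.7, SE 0.306, adjusted p = 0.128). Without WT CD4+ pre-tx replicate 1 this was called (log2 fold change -1.09, adjusted p = 0.0398). In CD8+ post-tx cells it was 50.5 ± 6.35 CPM in Cat-Tg cells and 62 ± 33.1 CPM in WT, and the interval of the log2 fold change was -1.05 to 0.61.

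Counted over the set, 2 of the 9 genes passed both thresholds for Cat-Tg against WT in CD8+ pre-tx (S1pr3 lower, Ccr7 higher), where 8.96% of all genes did. When only those 6 libraries were fitted, 6 of 9 passed, where 15.2% of all genes did. The genes added by that fit were S1pr4, S1pr5, Cd69 and Foxo1. The CD8+ counts with WT pre-tx libraries include S1pr3, which passed the filter only through them. In CD4+ pre-tx 3 of 9 passed (S1pr3 and S1pr5 lower, Cd69 higher) against 18.2% of all genes. In CD4+ post-tx 2 of 9 passed (Cd69 and Foxo1, both lower) against 10% of all genes. The median log2 fold change of the 9 genes was 0.18, 0.09, -0.04 and -0.25 in pre-tx and post-tx CD8+ cells and then in pre-tx and post-tx CD4+ cells, beside -0.07, -0.18, 0.03 and -0.19 over all genes.

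Between times, 1 of 9 passed in Cat-Tg CD8+ (Ccr7), where 13.9% of all genes did, and 6 of 9 in WT CD8+, where 23.6% did. In CD4+ 4 of 9 passed in Cat-Tg (S1pr3, Cd69, Ccr7 and Foxo1, all lower), where 40.9% of all genes did, and 4 of 9 in WT (S1pr3, S1pr5 and Ccr7 lower, Cd69 higher), where 22.1% did. Between cell types, 1 of 9 passed in Cat-Tg pre-tx (background 1.53%), 2 in Cat-Tg post-tx (5.85%) and 3 in WT post-tx (12.8%). In WT pre-tx 0 of 9 passed in edgeR, with 2 at an unadjusted p under 0.05 and also 0 called by DESeq2 and limma-voom. There 0.0367% of all genes passed, 7 by edgeR and 422 by DESeq2, and these are the libraries whose Cd4 and Cd8a levels went against their labels.

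**Figure D4:**
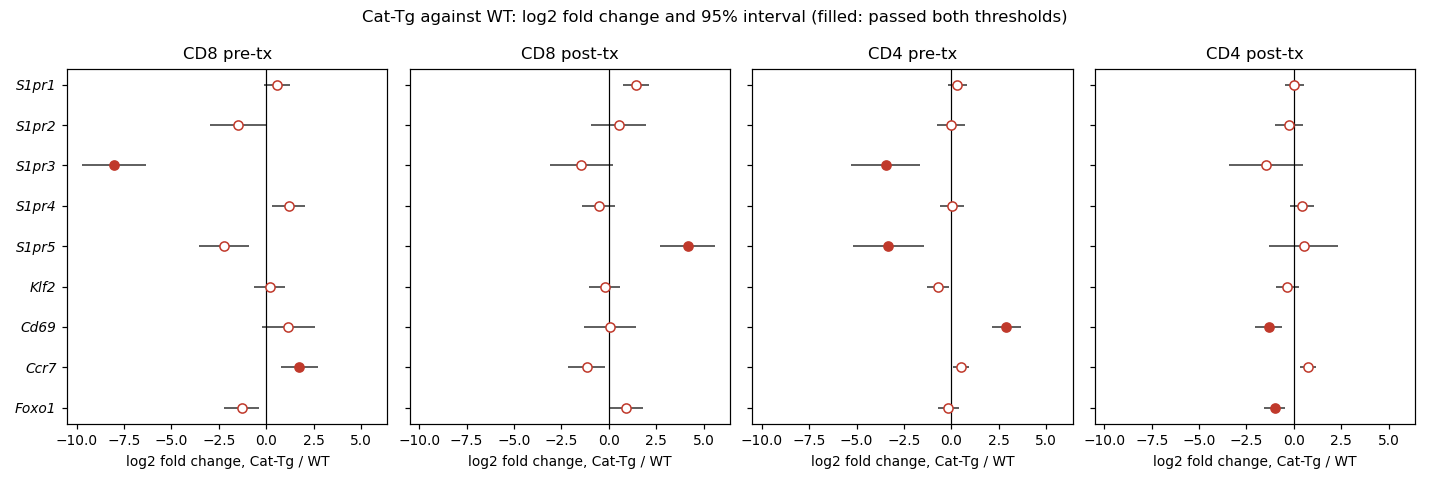
Log2 fold change of Cat-Tg over WT (horizontal axis) for the 9 genes in each cell type and time, with the 95% interval as a line; filled points passed both thresholds (adjusted p up to 0.05, log2 fold change of 1 or more in size). S1pr5 is at 4.17 in CD8+ post-tx and -3.32 in CD4+ pre-tx, and Cd69 is at 2.9 in CD4+ pre-tx and -1.33 in CD4+ post-tx.

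The interaction of genotype and time passed for 4 of 9 genes in CD8+ (S1pr3, S1pr5, Ccr7 and Foxo1), where 10.7% of all genes passed, and for 2 of 9 in CD4+ (S1pr5 and Cd69), where 21.2% did. Each of these uses the libraries labelled WT pre-tx. A test of whether the genotype effect differed between CD8+ and CD4+, added after the data were seen, called 0 of 9 genes in edgeR both pre-tx (background 1.18%) and post-tx (background 0.629%). At an unadjusted p under 0.05 there were 4 pre-tx and 4 post-tx, where 14.3% and 12.6% of all genes were. DESeq2 called 1 pre-tx (S1pr3) and 2 post-tx (Ccr7 and Foxo1). So the S1pr5 genotype difference in CD8+ post-tx cells was not shown to differ from that in CD4+ post-tx cells (difference 3.55, SE 1.23, adjusted p = 0.183).

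Other genes of the pathway were read from 5 lists. Between genotypes, 8.96% of all genes passed in CD8+ pre-tx and 1.67% in CD8+ post-tx, with 18.2% in CD4+ pre-tx and 10% in CD4+ post-tx. The genotype counts of each list stand beside those shares. Of 12 genes of S1P synthesis, breakdown and transport, 2 were lower in Cat-Tg CD8+ pre-tx, with a list median of -0.98 beside -0.07 over all genes. Plpp3, a phosphatase that removes S1P and related lipids, was at 0.418 ± 0.343 CPM against 31.5 ± 4.91 CPM in the libraries labelled WT. It passed the filter on low counts in CD8+ only through those WT pre-tx libraries, so it had to differ there. In CD8+ post-tx 1 was lower, again Plpp3 (0.0688 against 1.16 CPM). In the fit without the WT pre-tx libraries Plpp3 was not tested, and 0 genes of this list passed in CD8+ post-tx. In CD4+ pre-tx 1 was lower, the related Plpp2 (0.837 against 10.5 CPM). In CD4+ post-tx 3 were higher, among them the S1P-making kinase Sphk1 (18 ± 10.6 against 1.23 ± 1.05 CPM, adjusted p = 0.0196) and the red cell S1P exporter Mfsd2b (10.2 ± 3.24 against 1.38 ± 0.402 CPM, adjusted p = 0.00833). The red cell marker Alas2 was at 102 to 208 CPM in those Cat-Tg and at 3.87 to 8.76 CPM in those WT libraries, beside the myeloid values above, and their part was not tested.

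Of 13 genes of receptor coupling, 1 was higher in CD8+ post-tx in Cat-Tg, the Rac activator Dock2 that T cell migration needs (578 ± 251 against 106 ± 39.7 CPM, log2 fold change 2.49, SE 0.48, adjusted p = 0.024). In CD4+ pre-tx 1 was higher, the inhibitory G protein subunit Gnai3 (106 against 27.8 CPM). The list medians were -0.07, 0.42, -0.12 and -0.07 in the same order of groups.

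Of 13 genes of lymph node entry and positioning, 11 were tested in CD8+ and 13 in CD4+. Among those that passed in CD8+ pre-tx, the IL-7 receptor chain Il7r (362 against 71.7 CPM) was higher and the B cell follicle receptor Cxcr5 (25.6 against 201 CPM) was lower in Cat-Tg. In CD4+ pre-tx Il7r was higher (324 against 30.2 CPM) and Cxcr5 lower (58.2 against 227 CPM). In CD4+ post-tx Cxcr5 was lower (11.6 ± 1.11 against 56.3 ± 17 CPM, log2 fold change -2.28, SE 0.251, adjusted p = 0.000143). The pre-tx values again stand beside the B cell markers of the WT libraries.

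Of 9 other KLF and FOXO family genes, Klf13 alone passed between genotypes, in CD8+ post-tx (138 ± 30.1 against 29.3 ± 8.77 CPM in WT, log2 fold change 2.31, SE 0.381, adjusted p = 0.0131). KLF13 is a transcription factor of the CCL5 gene in T cells. Of 10 genes of tissue retention and effector circulation, 1 was higher and 3 lower in Cat-Tg CD8+ pre-tx, where 8.96% of all genes passed. In Cat-Tg CD4+ pre-tx 2 were higher and 1 lower, where 18.2% of all genes passed. The epithelium-binding integrin Itgae was higher in CD8+ (69.2 against 9.84 CPM) and Cxcr6 (177 against 34.3 CPM) and Rgs1 (98.9 against 5.48 CPM) were higher in CD4+. The receptor Cx3cr1 was lower in both (0.658 against 18.2 CPM in CD8+, 3.29 against 20.2 CPM in CD4+), and Zeb2 was lower in CD8+ (5.9 against 58.8 CPM). The myeloid markers summed to 167 to 729 CPM in Cat-Tg CD8+ pre-tx and 1110 to 3320 CPM in the libraries labelled WT. In CD4+ pre-tx they summed to 876 to 1360 and 1890 to 3480 CPM. The part of myeloid and B cell RNA in the pre-tx differences of this list was not tested.

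From pre-tx to post-tx in Cat-Tg cells, 13.9% of all genes passed in CD8+ and 40.9% in CD4+. In CD8+ 5 of 10 genes of tissue retention and effector circulation rose and 2 fell (list median 2.38 beside -0.26 over all genes), and in CD4+ 5 rose and 2 fell (1.5 beside -0.38). Of the lymph node entry genes 4 rose and 3 fell in CD8+, and 4 rose and 5 fell in CD4+. Of the coupling genes 3 rose in each cell type. In CD8+ 1 of 12 S1P metabolism genes rose, and in CD4+ 4 rose and 1 fell. The scale of these contrasts depended on the WT pre-tx libraries in the fit. Without them the median over all genes was -0.09 in CD8+ and 0.1 in CD4+, and 14.2% and 43.4% of all genes passed. The list of tissue retention and effector circulation then had 5 higher and 2 lower in CD8+ and 6 higher and 2 lower in CD4+, and the lymph node entry list 3 and 3 in CD8+ and 4 and 4 in CD4+.

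For each gene the protein-coding genes whose levels ran most like it over the 24 libraries were found by Spearman's rho. The 24 libraries share groups, depth and the mixed WT pre-tx samples, so this is a description. Ccr7 ran most like Ramp1 (rho 0.967) and Igfbp4 (0.949), and S1pr4 most like Emp3 (0.961) and Babam1 (0.949). Cd69 ran most like the TNF family ligand Tnfsf8 (0.943) and Il7r (0.912), S1pr3 most like Cd83 (0.891) and Zfp36 (0.881), and S1pr1 most like Pias1 (0.881) and the kinase Stk4 (0.881). Foxo1 ran most like Harbi1 (0.886) and Cxcr5 (0.866), and S1pr2 most like Nfic (0.85) and Stk11 (0.836). The weakest likeness was for Klf2, with Bin1 (0.817) and Rp9 (0.802), and for S1pr5, with the B cell survival receptor Tnfrsf13c (0.795) and Dennd3 (0.783).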

How the data were processed

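RNA from CD4+ and CD8+ T cells was converted to cDNA with SMART-Seq HT and made into Nextera XT libraries, 3 in each of 8 groups. The authors deposited, per library, estimated counts and TPM of each transcript from kallisto 0.46.2. The submitters' notes name mm9, while 116374 of 117497 deposited transcript IDs, with 99.57% to 99.75% of the counts, matched GENCODE M21 on GRCm38, which was used for gene symbols. Estimated counts were summed to 35817 symbols and rounded. Total counts per library were 11135713 to 50519825, with a median of 27062440.

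Genes over 1 CPM in at least 3 libraries of a fit were tested with edgeR 4.0.16 (robust quasi-likelihood F test, TMM) in R 4.3.3, in 1 fit of the 12 libraries of each cell type and 1 fit of all 24 for CD8 against CD4. A call needed a Benjamini-Hochberg adjusted p of at most 0.05 over all genes tested together with a log2 fold change of 1 or more in size. SE is the absolute log2 fold change over the square root of F. Alternatives were limma 3.58.1 voom, DESeq2 1.42.0, its size factors, other filters, length-scaled TPM, a replicate block, only the libraries compared, other fold thresholds and leaving out each library. The scripts were tested on simulated data. In the genotype comparisons, at most 2 called genes of each pathway list in each direction, with groups that did not overlap and the largest changes, were named. The 9 genes, the lists and the markers were chosen with earlier results of these data known. Per the study's methods, the WT libraries also serve other publications. Values of some single genes on the marker and pathway lists are not reported here.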

Additional observations from a re-analysis of the deposited data

Results flagged for a closer look

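For 6 results the effect of genotype differed between post-tx and pre-tx by the test of that difference in edgeR, with p-values adjusted over all genes. All 6 use the libraries labelled WT pre-tx, which hold both Cd4 and Cd8a and B cell RNA, and the part of that in the differences was not tested. In CD8+ the difference on the log2 scale was 6.59 for S1pr3, 6.39 for S1pr5 (adjusted p = 0.00109), -2.93 for Ccr7 (adjusted p = 0.0148) and 2.22 for Foxo1 (adjusted p = 0.0418). S1pr3 was tested in CD8+ only because the WT pre-tx libraries are high, with 0 to 12 counts in the others. Its difference restates that high group, so no p is given for it, and it missed the threshold with limma-voom. The Foxo1 difference missed the threshold without Cat-Tg pre-tx replicate 1 or 3, Cat-Tg post-tx replicate 1 or 2, WT pre-tx replicate 1 or 3, or WT post-tx replicate 3 (adjusted p 0.053 to 0.136). In CD4+ the difference was 3.83 for S1pr5 (adjusted p = 0.0471) and -4.22 for Cd69 (adjusted p = 0.000104). The S1pr5 difference in CD4+ missed the threshold without any 1 library other than Cat-Tg pre-tx replicate 1 and Cat-Tg post-tx replicate 3 (adjusted p 0.0505 to 0.109). The Cd69 difference was -4.43 to -3.52 with each library left out in turn and passed each time.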

How the results depend on the processing

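Among results of the 9 genes that were called or had an unadjusted p under 0.05, none changed direction under the alternatives. Of all 2269 values of the 9 genes under the alternatives, 88 changed direction. These came from 30 results, with a main log2 fold change of at most 1.41 in size. The number of the 9 genes called for Cat-Tg against WT in CD8+ pre-tx was 2, and 4 with DESeq2, 6 with only the libraries compared and 1 when a log2 fold change of 2 or more in size was asked for. In CD8+ post-tx it was 1, and 2 with DESeq2, with no filter and with length-scaled TPM. In CD4+ pre-tx it was 3, and 1 with no filter. In CD4+ post-tx it was 2, and 1 with DESeq2, its size factors, no filter, at least 10 counts, length-scaled TPM, only the libraries compared or without the WT pre-tx libraries, and 0 at a fold change of at least 2. Between times it was 1 in Cat-Tg CD8+, and 2 with limma-voom, no filter or only the libraries compared and 4 with DESeq2. In Cat-Tg CD4+ it was 4, and 1 with no filter or without the WT pre-tx libraries and 2 with only the libraries compared or at a fold change of at least 2. The genotype and time interaction called 4 in CD8+, and 2 with limma-voom. In CD4+ it called 2, and 1 with no filter or length-scaled TPM. For CD8+ against CD4+ the count was 1 in Cat-Tg pre-tx, and 0 with limma-voom, the replicate block or without the WT pre-tx libraries. In WT post-tx it was 3, and 0 with only the libraries compared and 1 at a fold change of at least 2. The added comparison of genotype effects called 0 at both times in edgeR (4 at an unadjusted p under 0.05 each), and 1 pre-tx with DESeq2 or only the libraries compared and 2 post-tx with DESeq2.

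With each library left out in turn the counts ranged from 0 to 1 in CD8+ pre-tx, 0 to 2 in CD8+ post-tx, 1 to 3 in CD4+ pre-tx and 0 to 1 in CD4+ post-tx. They ranged from 2 to 4 over time in Cat-Tg CD4+, from 2 to 5 for the interaction in CD8+ and 1 to 2 in CD4+. For CD8+ against CD4+ they ranged from 0 to 1 in Cat-Tg pre-tx and 2 to 4 in WT post-tx, and the added post-tx comparison from 0 to 1. The same replicate number did not mark deviations that ran together (r from -0.275 to 0.186 over 12 comparisons, in none of which all 3 were over 0.1), so the numbers were not taken as pairs, although CD4+ and CD8+ libraries of the same number may share a mouse. With the replicate block the count was 2 in CD8+ pre-tx (Ccr7 lost at an adjusted p of 0.0576, S1pr5 gained), 3 for the interaction in CD8+ (Foxo1 lost) and 2 for CD8+ against CD4+ in WT post-tx (S1pr4 lost). DESeq2 size factors shifted the median of all genes by up to 0.34 (log2), in the CD4+ interaction. S1pr3 in the 9 CD8+ libraries other than WT pre-tx had 0 to 12 counts, so differences among those were not detectable at this depth. Of the 18 genes named as most like a member by Spearman's rho, 7 were also among the 2 most alike by Pearson's r.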
